A study of Yarrowia lipolytica with 12 samples.

Results

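A set of 158 genes of the dimorphic yeast *Yarrowia lipolytica* was expressed in wild-type cells grown on *N*-acetylglucosamine (GlcNAc) and was higher in cells lacking either of the regulators YlRep1 and YlNgs1. The members were chosen from counts scaled to library totals (CPM, the reads counted for a gene per 1000000 reads counted in its library) by 3 conditions. A gene had a mean of at least 5 CPM in the 6 wild-type libraries, a mean over the 6 mutant libraries of at least 2 times the wild-type mean, and a lowest Yl*ngs1*Δ library above the highest wild-type library. Of 6400 genes listed, 5400 met the first condition, 196 also the second and 183 all 3. Of those 183, 25 genes that belong to the transcription factor and cell wall gene sets of the study, or were named in the rule, were set aside, which left 158. Because all 12 libraries entered this choice, the levels in the mutants are a description of the members and are not a test of them.

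The wild type was *Y. lipolytica* strain PO1a (*MATA leu2-270 ura3-302*), and both deletions were made in this strain by homologous recombination. WT/Vec cells carried the empty *CEN* plasmid pYL27, whereas WT/4NAG, Yl*rep1*Δ/4NAG and Yl*ngs1*Δ/4NAG cells carried pYL27-4NAG, in which the 4 GlcNAc catabolic genes (for the transporter Ngt1, the kinase Nag5, the deacetylase Dac1 and the deaminase Nag1) are each driven by the constitutive Yl*ACT1* promoter. All cultures were grown in YNB-GlcNAc medium with uracil and harvested at an OD600 of about 0.8, with 3 libraries in each of the 4 groups. The plasmid supplies GlcNAc catabolism that the deletion strains cannot switch on themselves, and these strains still grew more slowly than wild type in GlcNAc, so a difference between genotypes also holds the difference in growth.

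In *Candida albicans*, Rep1 is a DNA-binding protein of the Ndt80 family that brings Ngs1, an acetyltransferase that senses GlcNAc, to the promoters of GlcNAc-inducible genes. Uptake systems for sugars, amino acids, purine breakdown products and phosphate are among the genes that fungi most often switch with their nutrients, and permeases of this kind are held low in yeasts while a preferred source is present. *Y. lipolytica* is also known for its use of alkanes and fatty substrates, which are oxidised by cytochromes P450 of the CYP52 family and then by alcohol and aldehyde dehydrogenases. Descriptions were at hand for 145 of the 158 members, and gene names below follow them. A name such as "Mup1-like" means only that the protein was described as similar to that protein of another species, mostly *Saccharomyces cerevisiae* or *C. albicans*, where the role stated was worked out. The remaining 13 members are not described in the sources used here and are given by identifier.

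The libraries held 15667204 to 22650213 counted reads, and no member had fewer than 78 reads in any library. The deleted genes went only partly with the labels. Against the wild-type mean, Yl*REP1* stood at 24.1%, 14.7% and 83.7% in replicates 1, 2 and 3 labelled Yl*rep1*Δ, and Yl*NGS1* stood at 0.0724%, 20.3% and 40.6% in those labelled Yl*ngs1*Δ. Replicate 3 labelled Yl*rep1*Δ therefore held nearly the wild-type amount of Yl*REP1* reads, and the groups are called by their labels throughout. The median of all 5400 expressed genes stayed between 0.892 and 1.08 times the wild-type mean in each mutant library.

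Members took about 1% of all counted reads in wild type (0.987% to 1.08%) and between 2.03% and 3.99% in the mutant libraries. The median member reached 2.12, 3.22 and 1.62 times its wild-type mean in replicates 1, 2 and 3 labelled Yl*rep1*Δ, and 3.63, 2.71 and 2.103 times in those labelled Yl*ngs1*Δ. The lowest medians belonged to the libraries in which the deleted gene was least reduced, replicate 3 of each mutant. A link between member levels and the retained reads of the deleted gene was not tested. In replicate 3 labelled Yl*rep1*Δ, 8 members lay below their wild-type mean and 140 lay above every wild-type library. Of all 5400 expressed genes, 36.9% lay above every wild-type library there and 2463 lay below their wild-type mean. This library entered the fold condition, so the member counts partly restate the choice. An increase of this kind in a culture cannot tell more RNA per cell from more cells that carry the RNA.

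**Figure D1:**
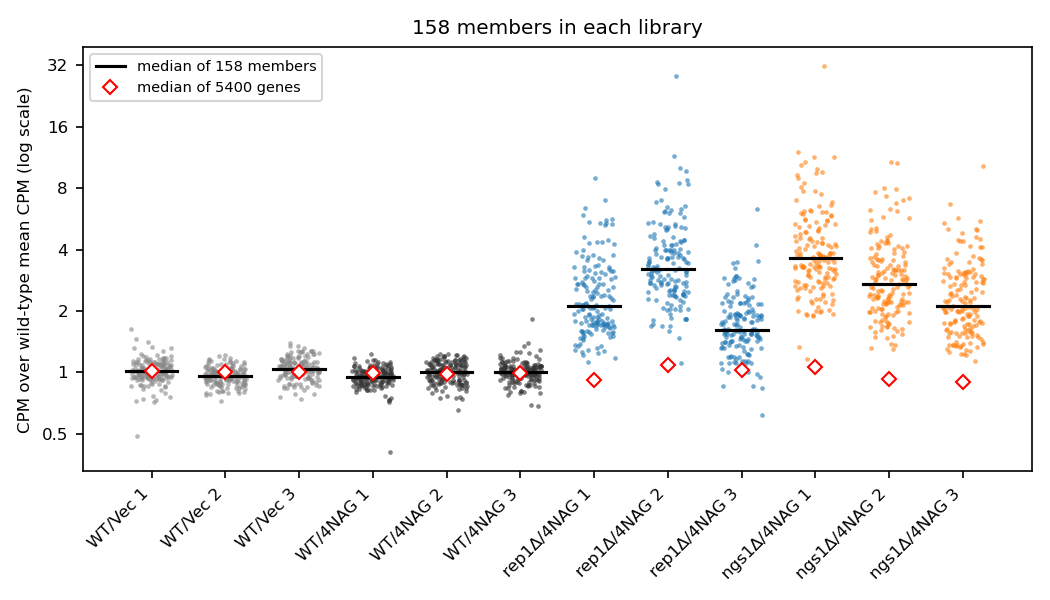
CPM of each of the 158 members in each of the 12 libraries, divided by the member's mean over the 6 wild-type libraries (log axis). Points are members, black bars their median, and red diamonds the median of all 5400 genes at 5 CPM or more. The member medians in the mutant libraries run from 1.62 to 3.63, while the diamonds stay near 1.

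Over all 6 mutant libraries the ratio of the mutant mean to the wild-type mean had a median of 2.58 and a highest value of 13.4. It was at least 3 for 55 members and at least 4 for 23. The rule asked for separation only from Yl*ngs1*Δ libraries, but its fold condition used the Yl*rep1*Δ libraries too, so members were partly chosen for high values there. Of the 158 members, 137 had their lowest Yl*rep1*Δ library above the highest wild-type library. Among all genes at 5 CPM or more, 10.2% separated in this way in Yl*rep1*Δ libraries and 14.6% in Yl*ngs1*Δ libraries. The Yl*rep1*Δ mean was at least 2 times the wild-type mean for 125 members and the Yl*ngs1*Δ mean for 154. Just inside the fold condition lay YALI0E24937 with a ratio of 2.010, and just outside it YALI0B12606 with 1.999. Just inside the level condition lay YALI0F25575 with 5.11 CPM in wild type, and just outside it YALI0A02266 with 4.85 CPM. The lowest Yl*ngs1*Δ library of YALI0A06589 was 1.02 times its highest wild-type library, and that of YALI0E18348, the nearest gene left out, was 0.993 times.

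The 12 members with the highest ratios included an amino acid permease, a sugar transporter, a pair of alcohol dehydrogenases and a kinase, and 4 proteins with no similarity to others. YlGAP1 (YALI0B19492), whose counterpart in *S. cerevisiae* is the general amino acid permease, had the highest ratio, 13.4. It was counted at 6.89, 7.81 and 7.67 CPM in WT/Vec, 5.38, 8.55 and 8.69 CPM in WT/4NAG, 40.7, 213 and 31.6 CPM in Yl*rep1*Δ/4NAG and 237, 47.4 and 33.0 CPM in Yl*ngs1*Δ/4NAG. Replicate 2 labelled Yl*rep1*Δ and replicate 1 labelled Yl*ngs1*Δ stood far above the other 4 mutant libraries, and those 4 still stood above every wild-type library. The mean was 106 ± 114 (SD, n = 3) CPM in Yl*ngs1*Δ/4NAG, with a spread as large as the mean itself. YALI0C04455, weakly similar to a *S. cerevisiae* protein of unknown function, came next with a ratio of 7.69, from 4.94 to 8.06 CPM in wild type to 58.3, 41.1 and 14.2 CPM in Yl*rep1*Δ/4NAG and 50.6, 69.7 and 66.8 CPM in Yl*ngs1*Δ/4NAG. Its order differed from that of YlGAP1. Replicate 1 labelled Yl*rep1*Δ and replicates 2 and 3 labelled Yl*ngs1*Δ lay above the rest of the mutant libraries.

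**Figure D2:**
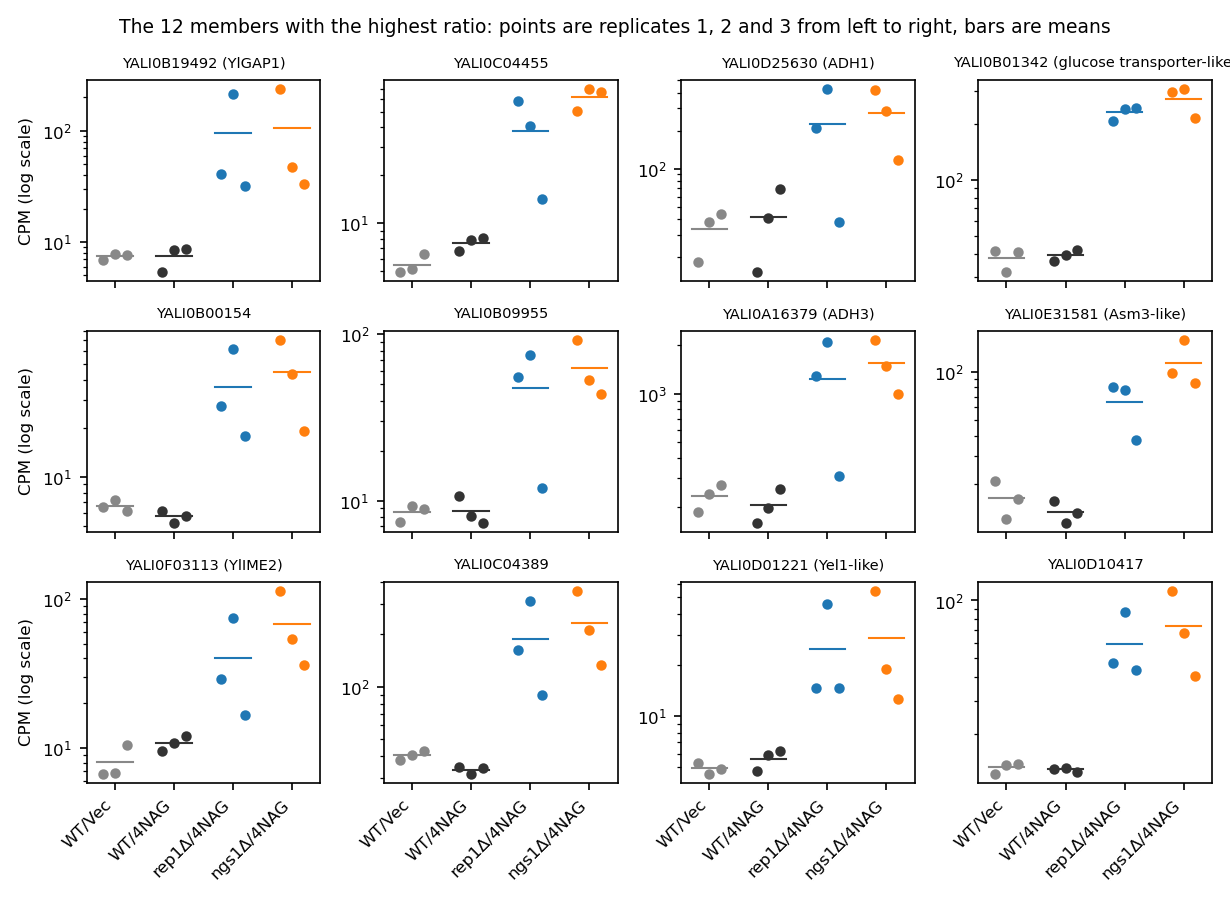
CPM (log axes) of the 12 members with the highest ratio of mutant mean to wild-type mean, in the 4 groups. Points are replicates 1, 2 and 3 from left to right and bars are group means. YlGAP1 reaches 213 CPM in replicate 2 labelled Yl*rep1*Δ and 237 CPM in replicate 1 labelled Yl*ngs1*Δ, against at most 8.69 CPM in wild type.

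Transport was the largest described role, with 36 members across 7 groups. Transport genes were not counted among all expressed genes, so whether this is more than their usual share was not tested. The sugar transporters comprised 3 genes, with ratios of 2.04 to 6.52. YALI0B01342, similar to a high-affinity glucose transporter of *Kluyveromyces lactis*, was among the most even of the members with high ratios. It was counted at 41.3, 31.9 and 40.7 CPM in WT/Vec and 36.3, 39.2 and 41.8 CPM in WT/4NAG, then at 207, 239.9 and 244 CPM in Yl*rep1*Δ/4NAG and 297, 307 and 213 CPM in Yl*ngs1*Δ/4NAG. All 6 mutant libraries lay at 4.95 times the highest wild-type library or more, and replicate 3 labelled Yl*rep1*Δ was the highest of its group. YHT1 (YALI0C06424), a hexose transporter similar to Snf3, was at 50.6 to 78.6 CPM in wild type, at 179.9, 516 and 135 CPM in Yl*rep1*Δ/4NAG and at 576, 189.8 and 167 CPM in Yl*ngs1*Δ/4NAG. YHT4 (YALI0E23287), another hexose transporter and the most strongly expressed of the 3 per coding length (268 FPKM in wild type, fragments per kilobase and per 1000000 fragments), went from 458 to 530.2 CPM to 570.2, 1416 and 1069 CPM and 1556, 728 and 596 CPM. For YHT1 and YHT4 the same pair of libraries, replicate 2 labelled Yl*rep1*Δ and replicate 1 labelled Yl*ngs1*Δ, was above the other 4 mutant libraries, and replicate 1 labelled Yl*rep1*Δ came within 1.08 times the highest wild-type library for YHT4. Of a list of 6 putative hexose transporter genes, the other 3 had under 1 CPM in wild type and were not tested in the comparisons with wild type.

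The uptake systems for amino acids, peptides and urea comprised 8 members with a median ratio of 2.76, and all 8 had a Yl*rep1*Δ mean of at least 2 times wild type. Mup1-like YALI0F25795, similar to a high-affinity methionine permease, was at 88.5 to 115 CPM in wild type, 258, 371 and 210.4 CPM in Yl*rep1*Δ/4NAG and 409.9, 313 and 252 CPM in Yl*ngs1*Δ/4NAG. The Dip5-like dicarboxylic amino acid permease YALI0C00451 was the most expressed of the group per coding length in the mutants (288 FPKM). It was counted at 155 to 185 CPM in wild type, 268, 767 and 455 CPM in Yl*rep1*Δ/4NAG and 915, 358 and 225 CPM in Yl*ngs1*Δ/4NAG, with replicate 2 and replicate 1, respectively, at more than 4 times the wild-type mean. A second Dip5-like gene, YALI0B20064, had a higher ratio (4.78) at a much lower level, but its replicate 3 labelled Yl*rep1*Δ, at 9.51 CPM, lay inside the wild-type range of 6.27 to 10.6 CPM. YlAGP3 (YALI0E20713), similar to a low-affinity amino acid permease, had the lowest ratio of the group, from 74.0 to 97.7 CPM to 145, 212 and 148 CPM and 228, 180.4 and 145 CPM. The remaining members were an arginine transporter-like gene (YALI0F01254, ratio 2.51), the oligopeptide transporter gene YlOPT2 (YALI0F30041, 2.42) and a Dur3-like urea and polyamine transporter gene (YALI0E28622, 2.53).

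Members linked to purine breakdown products, nucleosides and flavins numbered 4. Tna1-like YALI0A09383, of the allantoate permease family, went from 58.5 to 103 CPM to 175, 505 and 196 CPM in Yl*rep1*Δ/4NAG and 597, 238 and 142 CPM in Yl*ngs1*Δ/4NAG. Seo1-like YALI0F13607, of the same family, went from 193 to 230.1 CPM to 785, 432 and 401 CPM and 435, 869 and 858 CPM. These relatives had opposite orders among the mutant libraries. Tna1-like peaked in replicate 2 labelled Yl*rep1*Δ and replicate 1 labelled Yl*ngs1*Δ, whereas Seo1-like was higher in replicate 1 labelled Yl*rep1*Δ and in replicates 2 and 3 labelled Yl*ngs1*Δ than in those libraries. The nucleoside cotransporter-like gene YALI0C06578 (ratio 2.28) and the Flc1-like flavin carrier gene YALI0B09009 (3.20) followed the order of Tna1-like.

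Glycerol, inositol and phosphate transport held 7 members with a median ratio of 3.11. In all 7 the lowest Yl*rep1*Δ library lay above the highest wild-type library. The same held for 137 of all 158 members and for 10.2% of all expressed genes. Aqy3-like YALI0F00462, a channel protein related to the glycerol channel Fps1 of *S. cerevisiae*, had the highest mutant mean among all transport members per coding length (1535 FPKM). It was counted at 328, 318 and 339 CPM in WT/Vec, 365, 412 and 389.6 CPM in WT/4NAG, 1130.2, 2064 and 977 CPM in Yl*rep1*Δ/4NAG and 2212, 1459.5 and 1083 CPM in Yl*ngs1*Δ/4NAG. Every mutant library was at least 2.37 times the highest wild-type library. A second Aqy3-like gene, YALI0E05665, was close to the fold condition, from 55.9 to 72.6 CPM to 99.95, 183 and 150.2 CPM and 148, 126 and 112 CPM, and was among the 13 members higher in Yl*rep1*Δ than in Yl*ngs1*Δ libraries on average. Itr1-like YALI0F18084, similar to a *myo*-inositol transporter, went from 41.6 to 53.0 CPM to 80.9, 202 and 133 CPM and 206, 124 and 105 CPM. Higher ratios at lower levels were found for Stl1-like YALI0D01111, a glycerol proton symporter in *S. cerevisiae* (ratio 4.95, 7.78 to 11.5 CPM in wild type), and for Git2-like YALI0C16951, a glycerophosphoinositol permease in *C. albicans* (ratio 4.69, 11.6 to 16.7 CPM). A Pho84-like phosphate transporter gene (YALI0A15125) had a ratio of 2.15.

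Export of drugs and polyamines held 8 members, with ratios of 2.21 to 3.69. The major facilitator gene YlFGR2 (YALI0B18986) went from 99.1 to 129 CPM in wild type to 169, 473 and 334 CPM in Yl*rep1*Δ/4NAG and 471, 283 and 200.2 CPM in Yl*ngs1*Δ/4NAG. YlYCF1 (YALI0F12089), whose *S. cerevisiae* counterpart carries glutathione conjugates into the vacuole, went from 61.0 to 104 CPM to 148, 256 and 80.9 CPM and 308, 180.2 and 125 CPM. In this gene replicate 3 labelled Yl*rep1*Δ did not exceed the highest wild-type library, which was so for 4 of the 8 members of the group. Hol1-like YALI0F03795 was at 54.1, 48.9 and 43.9 CPM in WT/Vec, 59.9, 71.4 and 69.6 CPM in WT/4NAG, 152, 181 and 79.1 CPM in Yl*rep1*Δ/4NAG and 219, 259 and 207 CPM in Yl*ngs1*Δ/4NAG, and had the fourth largest log2 difference between the mutant means among all members. The others were 2 Tpo1-like polyamine transporter genes (YALI0E21241, ratio 3.69, and YALI0F08063, 2.31), YlFLR1 (YALI0F25597, 3.57), the ATP-binding cassette gene YlPDR15 (YALI0B12980, 2.57) and Ste6-like YALI0B12188 (2.39).

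Metal and organelle transport added 6 members with smaller ratios. Zrt2-like YALI0E00748, similar to a low-affinity zinc transporter, went from 21.4 to 27.8 CPM to 70.8, 69.5 and 85.7 CPM and 70.8, 104 and 71.9 CPM, and was the only metal transporter of the 3 whose highest Yl*rep1*Δ library was replicate 3. The sodium-proton antiporter-like gene YALI0E02156 had a ratio of 2.74. YlSMF2 (YALI0D26818), a divalent metal ion transporter gene, went from 233 to 297 CPM to 432, 588 and 489 CPM and 709, 614 and 469 CPM. The mitochondrial carrier genes YlYHM2 (YALI0B10736, citrate and oxoglutarate) and YlDIC1 (YALI0B03344, dicarboxylates) had ratios of 2.34 and 2.15, and Vtc5-like YALI0D13156, related to the vacuolar transporter chaperone complex, had 2.18.

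Alcohol, alkane and lipid metabolism held 13 members with a median ratio of 3.44, the highest median of any group with more than 10 members. ADH3 (YALI0A16379), an alcohol dehydrogenase gene, was counted at 185, 238 and 271 CPM in WT/Vec, 159, 197 and 256 CPM in WT/4NAG, 1288, 2101 and 309.8 CPM in Yl*rep1*Δ/4NAG and 2153, 1479 and 1000.0 CPM in Yl*ngs1*Δ/4NAG. Replicate 3 labelled Yl*rep1*Δ stood apart, at only 1.14 times the highest wild-type library, while the other 5 mutant libraries were at 1000.0 CPM or more. ADH1 (YALI0D25630), a related alcohol dehydrogenase gene, was at 18.1, 38.1 and 43.6 CPM in WT/Vec, 15.2, 40.6 and 68.4 CPM in WT/4NAG, 209, 427 and 37.5 CPM in Yl*rep1*Δ/4NAG and 424, 286 and 117 CPM in Yl*ngs1*Δ/4NAG. Its wild-type libraries differed among themselves by a factor of 4.51, the widest of any member, and replicate 3 labelled Yl*rep1*Δ lay inside their range.

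The cytochrome P450 genes ALK1 (YALI0E25982) and ALK3 (YALI0E23474), of the family that hydroxylates *n*-alkanes, had ratios of 3.40 and 3.52. ALK1 was at 26.1, 26.7 and 29.5 CPM in WT/Vec, 20.2, 17.2 and 18.8 CPM in WT/4NAG, 56.7, 119 and 43.4 CPM in Yl*rep1*Δ/4NAG and 151, 52.6 and 48.4 CPM in Yl*ngs1*Δ/4NAG. For ALK3 the wild-type range was 13.0 to 24.9 CPM and the mutant values were 56.8, 95.0 and 16.8 CPM and 105, 61.8 and 39.5 CPM, so that replicate 3 labelled Yl*rep1*Δ did not leave the wild-type range. Of a list of 12 ALK genes, 10 were tested in the comparisons of each mutant with WT/4NAG. In Yl*ngs1*Δ/4NAG 4 passed an adjusted p of 0.05 and 2-fold in edgeR's quasi-likelihood test (5.36% of all genes tested did in that direction), while 1, ALK1, passed in Yl*rep1*Δ/4NAG (1.06%). Of the 4, ALK1 and ALK3 are members that were chosen for high values in these libraries, and the others were ALK9 and ALK12, which stayed out of the set with 0.871 and 0.504 CPM in wild type. ALK4 fell by 0.87 on the log2 scale in Yl*ngs1*Δ/4NAG with an adjusted p of 0.0161 in edgeR, short of 2-fold.

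Of a list of 9 genes for the oxidation of alcohols, ADH1 and ADH3 passed upward in Yl*ngs1*Δ/4NAG, where 5.36% of all genes tested did, and no gene passed in Yl*rep1*Δ/4NAG, where 1.06% did. Both are members, chosen for high values in these libraries, and no gene of the list passed downward at both thresholds. Its median log2 fold changes were 0.18 (Yl*ngs1*Δ/4NAG) and 0.13 (Yl*rep1*Δ/4NAG), against 0.02 and 0.01 over all genes tested. 

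The other lipid members were led by Asm3-like YALI0E31581, a putative secreted acid sphingomyelin phosphodiesterase gene, which went from 11.5 to 21.0 CPM to 80.4, 77.1 and 37.5 CPM and 98.7, 158 and 84.9 CPM. Gpr1-like YALI0C23617, annotated as a regulator linked to the glyoxylate pathway, went from 214, 215 and 238 CPM in WT/Vec and 169, 175 and 171 CPM in WT/4NAG to 528, 1202 and 389.7 CPM in Yl*rep1*Δ/4NAG and 1348, 626 and 380.2 CPM in Yl*ngs1*Δ/4NAG. Fat1-like YALI0E16016, similar to a very long chain fatty acyl-CoA synthetase, went from 299.9 to 372 CPM to 586, 758 and 601 CPM and 876, 716 and 599 CPM, with all 6 mutant libraries separate from wild type. The remaining members included an Ifk2-like monooxygenase gene (YALI0F26983, ratio 4.09), an Atg15-like phospholipase gene (YALI0F06358, 3.44), a pair of Csr1-like phosphatidylinositol transfer protein genes (YALI0C05511, 2.44, and YALI0E23430, 2.26), a Pry1-like lipid binding protein gene (YALI0D06149, 2.24) and a sterol acyltransferase-like gene (YALI0D07986, from 31.9 to 51.3 CPM to 55.0, 104 and 81.7 CPM and 135, 102 and 69.0 CPM).

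**Figure D3:**
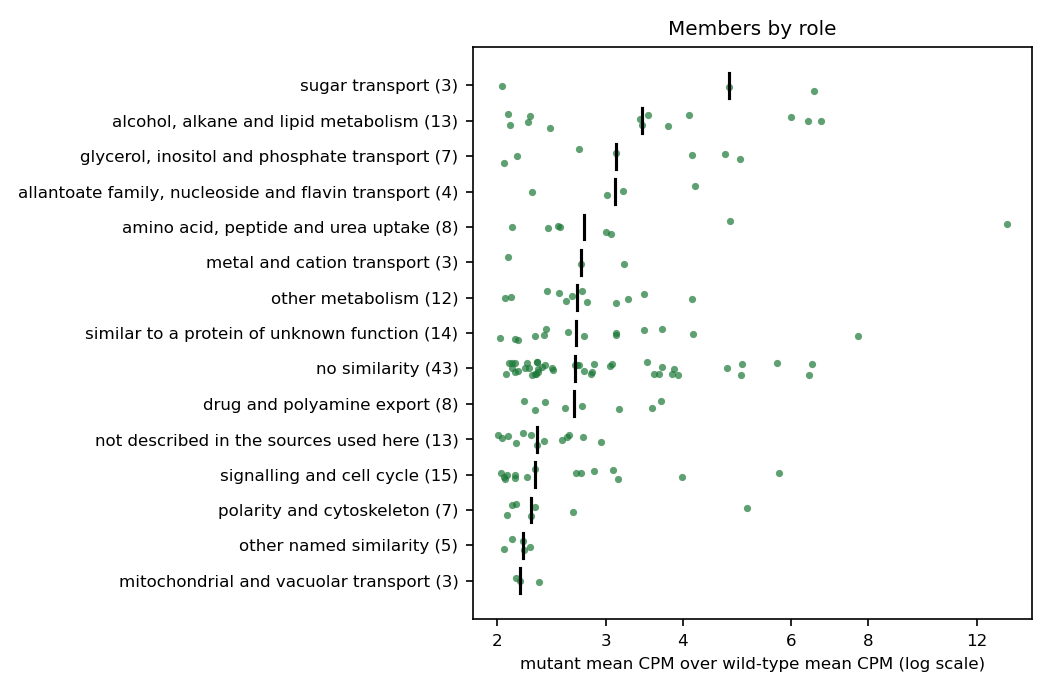
Ratio of mutant mean CPM to wild-type mean CPM (log axis) for each of the 158 members, by role, with the number of members in brackets. Points are members and black bars group medians. The bar is at 4.75 for the 3 sugar transporters, at 3.44 for alcohol, alkane and lipid metabolism and at 2.67 for the 43 members with no similarity.

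Among 12 members of other metabolism, YlPCK1 (YALI0C16995), which encodes phosphoenolpyruvate carboxykinase, the enzyme that commits oxaloacetate to gluconeogenesis, was the most expressed member per coding length in wild type and in the mutants. It was counted at 991, 915 and 1050.4 CPM in WT/Vec, 988, 1135 and 1009 CPM in WT/4NAG, 3000.0, 3313 and 3539 CPM in Yl*rep1*Δ/4NAG and 3986, 4233 and 3029 CPM in Yl*ngs1*Δ/4NAG. The means were 1044 ± 79.5 (SD, n = 3) CPM in WT/4NAG, 3284 ± 271 (SD, n = 3) CPM in Yl*rep1*Δ/4NAG and 3749 ± 636 (SD, n = 3) CPM in Yl*ngs1*Δ/4NAG. Every mutant library lay at more than 2 times the highest wild-type library, replicate 3 labelled Yl*rep1*Δ included. Of a list of 5 genes of gluconeogenesis and the glyoxylate cycle, YlPCK1, itself chosen as a member from these libraries, was the only gene to pass in either mutant, where 5.36% (Yl*ngs1*Δ/4NAG) and 1.06% (Yl*rep1*Δ/4NAG) of all genes tested passed upward. The other 4 had log2 fold changes of -0.23 to 0.17 across both mutants.

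YlAAT2 (YALI0F29337), a cytosolic aspartate aminotransferase gene, went from 346 to 393 CPM to 884, 1247 and 644 CPM in Yl*rep1*Δ/4NAG and 1399, 1254 and 750.0 CPM in Yl*ngs1*Δ/4NAG. Sga1-like YALI0E05203, related to a glucoamylase of sporulating *S. cerevisiae* cells, went from 20.7 to 27.6 CPM to 97.6, 65.4 and 57.4 CPM and 87.3, 180.0 and 123 CPM and had the largest difference between the mutant means of all members, 0.82 on the log2 scale. A dioxygenase-like gene (YALI0A21439) went from 426 to 501 CPM to 1644, 841 and 529.5 CPM and 1017, 1654 and 2088 CPM. Met16-like YALI0B08140, similar to the reductase that turns phosphoadenylyl sulfate into sulfite, went from 217 to 273 CPM to 899, 446 and 272 CPM and 482, 877 and 836 CPM. In both of these genes replicate 1 labelled Yl*rep1*Δ and replicates 2 and 3 labelled Yl*ngs1*Δ were the high libraries. Other members were a Pcs60-like oxalyl-CoA synthetase gene (YALI0B07755, ratio 2.65), a calcineurin-like phosphoesterase gene (YALI0E34947, 3.26), a short-chain dehydrogenase-like gene (YALI0A19536, 3.12), a Sec59-like dolichol kinase gene (YALI0E18942, 2.52), the glutathione transferase gene YlGST2 (YALI0F25575, 2.41), a Ktr1-like mannosyltransferase gene (YALI0A06589, 2.11) and a Sli1-like acetyltransferase gene (YALI0F16918, 2.06).

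Signalling and the cell cycle held 15 members with a median ratio of 2.30. YlIME2 (YALI0F03113), a serine/threonine kinase gene whose *S. cerevisiae* relative acts in meiosis, was at 6.75, 6.80 and 10.5 CPM in WT/Vec, 9.58, 10.9 and 12.1 CPM in WT/4NAG, 29.0, 74.7 and 16.6 CPM in Yl*rep1*Δ/4NAG and 114, 54.4 and 36.2 CPM in Yl*ngs1*Δ/4NAG. All 6 mutant libraries were above the wild-type libraries, although replicate 3 labelled Yl*rep1*Δ exceeded the highest of them by a factor of only 1.37. Another serine/threonine kinase gene (YALI0B08558) went from 23.1 to 33.6 CPM to 87.3, 139 and 83.1 CPM and 170.3, 104 and 85.0 CPM. YlRAS1 (YALI0E08756), a small GTPase gene of the adenylate cyclase pathway, had a ratio of 3.15, from 9.23 to 13.1 CPM to 34.1, 43.7 and 16.4 CPM and 47.0, 31.1 and 29.5 CPM. Clg1-like YALI0E07898, a cyclin-like gene, went from 73.9 to 86.0 CPM to 170.5, 284 and 184 CPM and 289, 205 and 155 CPM. A second Clg1-like gene (YALI0D02761) had a ratio of 2.23.

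Met30-like YALI0B09977, similar to an F-box protein that regulates sulfur metabolism in *S. cerevisiae*, went from 54.0 to 63.8 CPM to 223, 108 and 65.7 CPM and 119.8, 260.4 and 244 CPM and shared the order of Met16-like. Mih1-like YALI0C06460, a phosphatase-like gene of the cell cycle, went from 74.0 to 99.0 CPM to 113, 235 and 167 CPM and 286, 172 and 152 CPM. Near the fold condition lay YlHST3 (YALI0C23034), a histone H3 deacetylase gene, at 21.8 to 26.6 CPM in wild type, 30.4, 75.3 and 47.2 CPM in Yl*rep1*Δ/4NAG and 69.9, 41.1 and 33.3 CPM in Yl*ngs1*Δ/4NAG. Kin4-like (YALI0C21758), Sln1-like (YALI0F08789), YlAGE1 (YALI0D07524), Msg5-like (YALI0F00858), Cdc7-like (YALI0F08165), Ptr3-like (YALI0D02673) and Opy2-like (YALI0E08888) genes completed the group, with ratios of 2.06 to 3.08.

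Polarity and the cytoskeleton held 7 members. Yel1-like YALI0D01221, related to an exchange factor for ADP-ribosylation factors, had a ratio of 5.09, from 4.59 to 6.20 CPM to 14.6, 45.5 and 14.7 CPM and 54.7, 18.9 and 12.7 CPM. The septin-like gene YALI0C04774 went from 13.6 to 18.6 CPM to 46.6, 45.1 and 21.4 CPM and 52.1, 46.3 and 47.9 CPM, and a dynactin-like gene (YALI0D18249) from 29.7 to 33.7 CPM to 49.8, 105 and 54.5 CPM and 120.4, 64.7 and 41.2 CPM. YlAEF3 (YALI0C14586), similar to a glucose-repressible ADP-ribosylation factor, was at 50.4 to 62.5 CPM in wild type, 105, 136 and 57.1 CPM in Yl*rep1*Δ/4NAG and 159, 129.7 and 103 CPM in Yl*ngs1*Δ/4NAG. The polarisome gene Spa2-like YALI0F16665 had a ratio of 2.07, Kip4-like YALI0D24079 2.15 and Sad1-like YALI0E22825 2.27. For YlAEF3 and Sad1-like the lowest Yl*rep1*Δ library did not exceed the highest wild-type library. A further 5 members with other named similarity had ratios of 2.05 to 2.26, among them Pin2-like YALI0E06809 (2.26), Ppr5-like YALI0F27753 (2.21) and Pns1-like YALI0F23507 (2.12).

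The largest group, 43 members, had no similarity to other proteins, and 14 more were described as resembling proteins of unknown or unstated function. Of the 43, 40 had their lowest Yl*rep1*Δ library above the highest wild-type library, against 137 of all 158 members. A higher mean in Yl*ngs1*Δ than in Yl*rep1*Δ libraries was found for 39, against 145 of all members. YALI0B00154 led them with a ratio of 6.49, from 5.22 to 7.24 CPM in wild type to 27.5, 62.4 and 18.0 CPM and 70.5, 43.4 and 19.3 CPM. YALI0C04389, annotated only as an integral membrane component, went from 31.6 to 42.7 CPM to 162, 312 and 89.1 CPM and 356, 212 and 133 CPM, and YALI0D10417 from 12.5 to 14.0 CPM to 46.9, 86.7 and 43.3 CPM and 112, 67.4 and 40.4 CPM. These 3 shared the order with replicate 2 labelled Yl*rep1*Δ and replicate 1 labelled Yl*ngs1*Δ on top. YALI0E31559 was at 57.0 to 90.1 CPM in wild type, 467, 212 and 79.1 CPM in Yl*rep1*Δ/4NAG and 255, 530.3 and 445 CPM in Yl*ngs1*Δ/4NAG, with the opposite order. The most abundant by count were YALI0E10505, from 107 to 137 CPM to 383, 370.5 and 214 CPM and 375, 453 and 360.4 CPM, and YALI0C05687, from 205 to 239 CPM to 453, 689 and 341 CPM and 732, 491 and 454 CPM.

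All 14 members described as resembling proteins of unknown or unstated function had their lowest Yl*rep1*Δ library above the highest wild-type library. So did 137 of all 158 members and 10.2% of all expressed genes. Their separation in Yl*ngs1*Δ libraries was a condition of the choice. YALI0D03245 went from 239.9 to 339.6 CPM to 731, 1133 and 458 CPM and 1219.5, 800.3 and 685 CPM. Aqr1-like YALI0C10208, described as weakly similar to a *C. albicans* protein of unknown function, went from 195 to 266 CPM to 512, 742 and 270.0 CPM and 798, 460.2 and 467 CPM. It was not counted with the transport members. YALI0D12078 was at 133, 123 and 151 CPM in WT/Vec, 164, 189 and 172 CPM in WT/4NAG, 386, 316 and 346 CPM in Yl*rep1*Δ/4NAG and 353, 466 and 346 CPM in Yl*ngs1*Δ/4NAG, and its wild-type groups did not overlap. YALI0E22803, the second nearest to the fold condition, was at 60.9 to 70.0 CPM in wild type and at 132, 127 and 126 CPM and 128, 159 and 130.0 CPM in the mutants, which were the most even values among all members.

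The 13 members without a description had lower ratios (2.01 to 2.94), and in all 13 replicate 1 was the highest library labelled Yl*ngs1*Δ and replicate 2 the highest labelled Yl*rep1*Δ. YALI0B16522 went from 35.7 to 48.1 CPM to 71.8, 229 and 61.5 CPM and 254, 76.0 and 57.3 CPM, and YALI0D10835 from 222 to 285 CPM to 394, 676 and 396 CPM and 783, 401 and 411 CPM. The study described the genes it called in at least 1 mutant, so having no description is itself tied to the size and evenness of the difference.

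The members fell into a larger and a smaller group by the order of the mutant libraries, a division made after their values were seen. In 106 of the 158 members replicate 2 labelled Yl*rep1*Δ and replicate 1 labelled Yl*ngs1*Δ both lay above the other 4 mutant libraries, against 1948 of the 5242 other expressed genes (37.2%). The fold condition took the mean over these same mutant libraries, so genes very high in 2 of them were more likely to be chosen. The comparison with the other genes is therefore no test of the members. Without replicate 1 labelled Yl*ngs1*Δ, the rule kept 123 of the 158 members. In 23 members replicate 1 labelled Yl*rep1*Δ and replicates 2 and 3 labelled Yl*ngs1*Δ all lay above the other 3, against 663 of the 5242 others (12.6%). The second group included Seo1-like, Met16-like, Met30-like, Sga1-like, the dioxygenase-like and Pcs60-like genes, Dur3-like, YlDIC1 and YALI0E31559. Across members, the log2 ratio of replicate 1 to replicate 2 labelled Yl*ngs1*Δ and that of replicate 2 to replicate 1 labelled Yl*rep1*Δ had a Pearson correlation of 0.933 and a Spearman correlation of 0.926 (n = 158 genes, which are not independent replicates). These ratios share no library. The other 5242 genes gave 0.867 and 0.856, so this contrast was not particular to the members. It was set after the values were seen and leaves out replicate 3 of each mutant, so it does not cover the full orders. The mutant libraries also differed in the Yl*REP1* and Yl*NGS1* reads they retained, and the part of this in the orders was not tested.

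**Figure D4:**
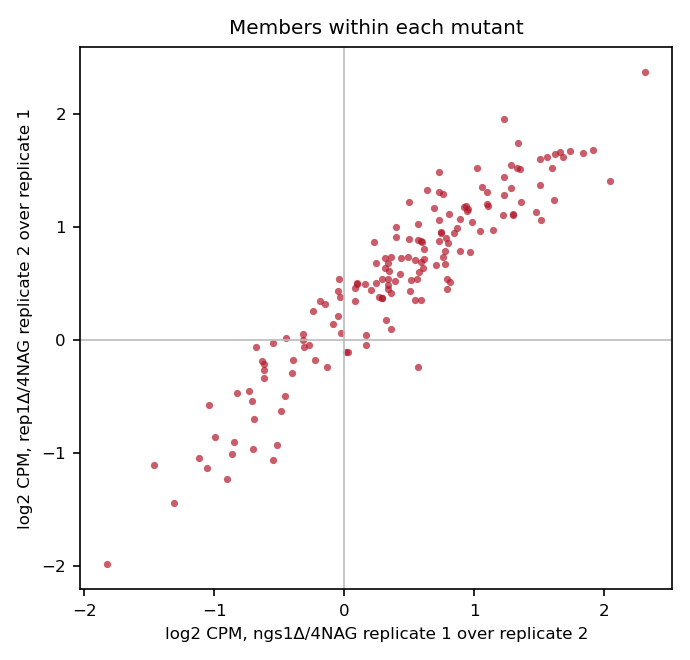
Each of the 158 members by the log2 ratio of CPM in replicate 1 to replicate 2 labelled Yl*ngs1*Δ (horizontal axis) and in replicate 2 to replicate 1 labelled Yl*rep1*Δ (vertical axis), with 0.5 CPM added to each value. Members lie along a rising line through the origin, 111 of them above 0 on both axes and 31 below 0 on both.

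Within a mutant, a member's highest library was a median of 2.34 times its lowest in Yl*rep1*Δ/4NAG and 1.94 times in Yl*ngs1*Δ/4NAG, compared with 1.35 times over the 6 wild-type libraries. The widest member in Yl*rep1*Δ/4NAG was ADH1 at 11.4 times, and in Yl*ngs1*Δ/4NAG YlGAP1 at 7.19 times. In Yl*ngs1*Δ/4NAG against WT/4NAG, 136 of the 158 members passed an adjusted p of 0.05 and 2-fold, where 5.36% of all 6040 genes tested passed in that direction. In Yl*rep1*Δ/4NAG against WT/4NAG 36 members passed, where 1.06% of 6041 genes did. These comparisons used the libraries that chose the members, so the counts restate the choice. The count for Yl*rep1*Δ/4NAG rose to 130 without replicate 3 labelled Yl*rep1*Δ, in which Yl*REP1* was at 83.7% of wild type, to 66 without replicate 1, and fell to 1 without any 1 of the 3 WT/4NAG libraries. For Yl*ngs1*Δ/4NAG it fell to 90 and 88 without WT/4NAG replicates 1 and 2, respectively, and was 153 without replicate 3 labelled Yl*ngs1*Δ. Rebuilt without replicate 3 of both mutants, an alternative added after the data were seen, the set held 215 genes, 157 of the 158 members among them.

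**Figure D5:**
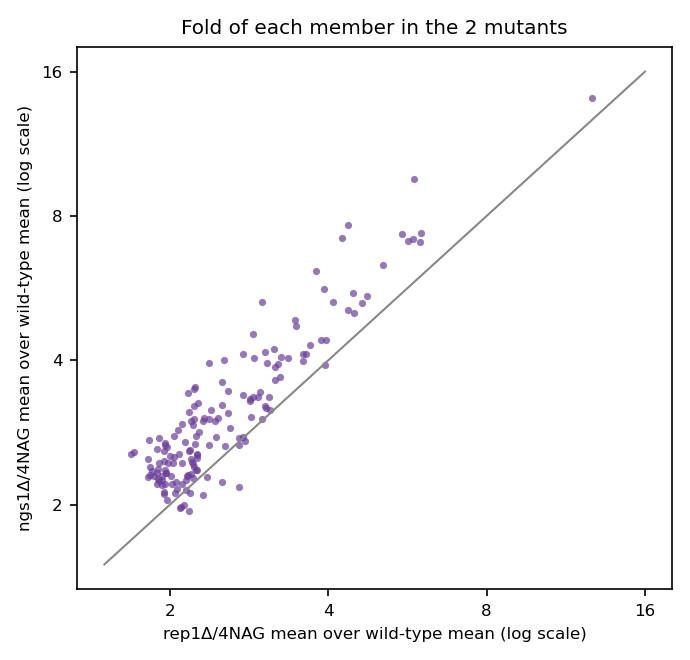
Mean CPM of each of the 158 members in Yl*rep1*Δ/4NAG (horizontal axis) and Yl*ngs1*Δ/4NAG (vertical axis), each divided by the mean of the same 6 wild-type libraries (log axes). Each point is a member and the grey line marks equal folds. The points of 145 members lie above the line, and YlGAP1 is the point at 12.7 and 14.1.

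The Yl*ngs1*Δ mean exceeded the Yl*rep1*Δ mean for 145 members, with a median difference of 0.26 on the log2 scale and a range of -0.31 to 0.82. The no-overlap condition was asked of Yl*ngs1*Δ libraries alone and favours this direction. The largest differences toward Yl*ngs1*Δ were those of Sga1-like (0.82), Asm3-like (0.81), YlIME2 (0.76) and Hol1-like (0.73). Toward Yl*rep1*Δ they were those of Csr1-like YALI0C05511 (-0.31), YALI0E30349 (-0.17), Aqy3-like YALI0E05665 (-0.17) and YALI0E20911 (-0.14). In the edgeR comparison of Yl*ngs1*Δ/4NAG with Yl*rep1*Δ/4NAG no member passed, where 0% of 6016 genes passed in either direction. At an unadjusted p of 0.05 without a fold threshold 8 members were higher in Yl*ngs1*Δ/4NAG and 0 lower (background 0.632% and 0.549% of genes), and DESeq2 and limma also called 0. These 8 included Sga1-like and Hol1-like but not Asm3-like or YlIME2. For Hol1-like the libraries of the mutants did not overlap, and for Sga1-like they did.

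The comparison of WT/4NAG with WT/Vec was the only one that the rule did not set up, although a gene far higher in either wild-type group was less likely to pass it. It asks what constitutive expression of the 4 catabolic genes changed in wild-type cells. No member passed an adjusted p of 0.05 and 2-fold in edgeR, in DESeq2 or in limma, where 0.182% of 6043 genes passed upward and 0% downward in edgeR, and no member passed an unadjusted p of 0.05 with 2-fold. The log2 fold changes of members ran from -0.59 to 0.48 with a median of 0.03, against 0.00 for all genes tested. Without a fold threshold 9 members were higher (5.70%, against 6.24% of all genes) and 11 lower (6.96%, against 4.32%).

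The members higher in WT/4NAG included Hol1-like YALI0F03795, with a log2 fold change of 0.48 (SE 0.09) and an adjusted p of 0.00202 in edgeR, and YALI0D12078, with 0.40 (SE 0.08) and 0.00353. Aqy3-like YALI0F00462 rose by 0.27 (SE 0.06) and YlSMF2 by 0.21 (SE 0.06). For Hol1-like the 3 WT/4NAG libraries lay above the 3 WT/Vec libraries. The members lower in WT/4NAG included ALK1, which changed by -0.52 (SE 0.10) with an adjusted p of 0.00334 in edgeR, Gpr1-like YALI0C23617 by -0.35 (SE 0.06) with 0.00163, Tna1-like YALI0A09383 by -0.44 (SE 0.10), Pry1-like YALI0D06149 by -0.59 (SE 0.15), YlYCF1 by -0.37 (SE 0.09), YlYHM2 by -0.31 (SE 0.08) and Ste6-like YALI0B12188 by -0.32 (SE 0.08). For ALK1 and Gpr1-like every WT/4NAG library lay below every WT/Vec library. Over all members, the 3 WT/4NAG libraries were all above the 3 WT/Vec libraries for 15 (9.49%, against 12.3% of the 5400 expressed genes) and all below for 27 (17.1%, against 21.1%). Each of these differences was smaller than 2-fold.

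The members were spread over all 6 chromosomes, which the identifiers name by letter, with 10 on A, 22 on B, 21 on C, 29 on D, 39 on E and 37 on F. These numbers were 2.07% to 3.16% of the expressed genes of each chromosome. There were 4 pairs of members next to each other in identifier order. They were YALI0B09955 with Met30-like, YALI0E22803 with Sad1-like, YALI0E31559 with Asm3-like, and YlGST2 with YlFLR1. Of 256 expressed genes next to a member, 3.13% were members, against 2.93% of all expressed genes. The coding length of members had a median of 1572 bases, compared with 1236 bases for all expressed genes. No promoter or protein sequence of these genes was used here.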

How the data were processed

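RNA-Seq was done on 12 libraries, 3 in each of 4 groups taken from the sample titles. The authors deposited a table of raw counts for each group, with FPKM values for the same genes beside the counts. The deposited FPKM were used only to recover coding lengths and to compare levels between genes. TopHat2 2.1.1 and Cufflinks 2.2.1 appear in the submitters' processing notes together with a mouse build. The counting program, its use of strand and the annotation were not given in the sources used here. Genes that overlap or have near-identical copies may share reads.

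CPM were computed as count over library total. Comparisons used edgeR 4.0.16 (quasi-likelihood F test, TMM scaling, filterByExpr, groups of each comparison only) in R 4.3.3, with Benjamini-Hochberg adjustment over all genes tested, and genes were called at an adjusted p below 0.05 and at least 2-fold. DESeq2 1.42.0 and limma 3.58.1 were alternatives, and the edgeR fit was also run on simulated counts. These were drawn independently for each gene and library, so they hold none of the orders that genes share across the mutant libraries. No source says whether replicate libraries were grown separately. Their spread, on which p-values rest, may be technical in part. Counts of paired replicates differed with a chi-square per degree of freedom of 60.4 to 417 in the mutants, against 7.27 to 14.2 in wild type. Mutant replicates also differed in the reads of the deleted gene, and the source of their spread was not tested. Levels rest on 15667204 to 22650213 reads a library.

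The members and gene lists were chosen with earlier results of these data known. Named genes were the 12 members with the highest ratio and the 12 with the highest mutant mean, the 3 with the lowest ratio, the 4 with the highest and the 4 with the lowest Yl*ngs1*Δ over Yl*rep1*Δ ratio, all members in the lists, and the 3 with the highest mutant mean in each role. Other members were named after their values were seen. Roles were assigned by hand from the study's descriptions. The available annotation is of another strain and shares no identifiers with the files, so promoters and proteins were not used here.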

Additional observations from a re-analysis of the deposited data

How the results depend on the processing

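The rule gave 158 members, 390 when 1.5 times sufficed and 55 at 3 times. TMM-scaled CPM, other level conditions, WT/4NAG alone as wild type and other uses of the no-overlap condition gave 134 to 207, and leaving out each library gave 139 to 183. Members called in Yl*rep1*Δ/4NAG against WT/4NAG numbered 36, but 106 with DESeq2, 81 with all 12 libraries in 1 fit and 77 with limma and sample quality weights, each including the 36, and 1 to 130 when each library was left out. In Yl*ngs1*Δ/4NAG against WT/4NAG there were 136, and 88 to 153 when each library was left out, while the other alternatives gave 132 to 149. Fits that leave out a library keep 2 in its group, and why leaving out any WT/4NAG library removed nearly all calls in Yl*rep1*Δ/4NAG was not tested. Without a fold threshold 20 members passed in WT/4NAG against WT/Vec, and no alternative with the threshold called a member there or between the mutants. A replicate block gave 45 and 132 calls against WT/4NAG, and same-numbered libraries did not pair (correlations of deviations from -0.598 to 0.197 across the 4 comparisons). Between the mutants, differently numbered libraries went together. Replicate 1 labelled Yl*ngs1*Δ had 0.788 with replicate 2 labelled Yl*rep1*Δ. Replicates 2 and 3 labelled Yl*ngs1*Δ had 0.512 and 0.442 with replicate 1 labelled Yl*rep1*Δ. The lowest value between the mutants was -0.715. For the 64 named genes no called value changed direction. In Yl*rep1*Δ/4NAG 112 of the values under alternatives gained a call and 69 lost it, and in Yl*ngs1*Δ/4NAG 18 gained and 64 lost it. Each member had at least 78 reads in every library, and what limited the calls was not tested.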

Other observations

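A further 12 genes met the level and fold conditions but not the separation of the libraries labelled Yl*ngs1*Δ from wild type. The ratio was highest for YALI0E31603, with 11.9 CPM on average in wild type and 62.6 CPM in the mutants, and its lowest Yl*ngs1*Δ library was 0.630 times its highest wild-type library. For YALI0D20306 the wild-type mean was 36.6 CPM and the means were 143 CPM in Yl*rep1*Δ/4NAG and 82.7 CPM in Yl*ngs1*Δ/4NAG, with the lowest Yl*ngs1*Δ library at 21.8 CPM. YALI0A15906 and YALI0D04092 had mutant means of 53.3 and 57.8 CPM against 21.9 and 21.8 CPM in wild type, and YALI0E34199, weakly similar to the potassium transporter Kch1 of *S. cerevisiae*, had 17.1 CPM against 7.01 CPM. In each of these genes the highest mutant library was above every wild-type library and the lowest Yl*ngs1*Δ library was not.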
